A study of Mus musculus with 27 samples.

Results

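The neuronal immediate early genes are a set of 10 genes whose transcripts build up within minutes when a neuron fires or is stimulated, without new protein having to be made first. They were taken as the rows of the deposited expression table that carry the symbols arc, fos, fosb, junb, egr1, egr2, npas4, nr4a1, ier2 and dusp1, in the lower case of that table. All 10 were found among 26264 gene symbols, and all 10 passed the filter on low values that kept 12976 genes for testing. The set was chosen by earlier results of these same libraries, in which ier2 and dusp1 differed between R55 and R33 mice once a single R33 mouse was left out. Those 2 calls came from a fit with no term for the mouse, and 1 of them was left with the mouse as a replicate block and 1 with the trend on transcript length removed. Because it chose the set, the comparison of R55 with R33 is given here as a description, with no test. The comparisons of R55 and of R33 with vehicle use the same R55 and R33 libraries, so the choice of the set reaches them too. Their counts of members are no independent evidence.

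RNA was measured in blocks of cortex of about 1 mm3 from 16-week-old female 5xFAD mice, a model that carries mutant human transgenes for the amyloid precursor protein and presenilin and forms amyloid plaques early in life. The transgenes are driven by the Thy1 promoter, which is active mainly in neurons. All mice carried these transgenes on a C57BL/6J background, the vehicle mice included. Each mouse was injected in the lateral parietal associative cortex of 1 hemisphere with 500 nL of vehicle, of 10 mM R33 or of 10 mM R55, which are small molecules made to stabilise the retromer, a complex that sorts proteins out of endosomes. Both cortices were taken 24 h later, so that each mouse gave an injected and a contralateral library. There were 4 vehicle mice (AH, J, L and M), 5 R33 mice (AD, AE, K, N and O) and 5 R55 mice (AA, AB, P, Q and R) and 27 libraries in all, the contralateral side of R33 mouse AE being not analysed here. Every mouse underwent surgery, and no uninjected mouse is part of these groups.

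The libraries held 15932196 to 38077026 fragments on genes, and values are FPKM, fragments scaled to the length of the transcript and to the total of counted fragments. Transcripts that define neurons were present in every library, with 8 neuronal markers summing to 3384 to 4454 FPKM per mouse, and their sum had a Pearson correlation of 0.37 over 14 mice with the mean standardised level of the 10 genes. The 5 astrocyte, 5 microglial, 4 oligodendrocyte, 4 endothelial and 5 striatal markers gave correlations between -0.35 and 0.14. Red blood cell genes were represented by alas2 alone, since the other 4 were listed at 0 in every library. It ran from 1.33 to 1.98 FPKM in vehicle mice, from 1.39 to 5.62 FPKM in R33 mice, the highest being AD, and from 1.32 to 4.87 FPKM in R55 mice, and its correlation with the 10 genes was 0.63. The part of cell makeup in the levels below was not tested. In blocks of tissue, fewer cells of a type and less RNA per cell cannot be told apart.

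The 10 genes act at different steps of 1 response. Calcium entry and kinase signalling act on factors already bound at their promoters, chiefly CREB at cyclic AMP response elements and serum response factor at CArG boxes, and transcription starts at once. Most of the 10 encode transcription factors that then switch on later genes, while arc acts at the synapse and dusp1 turns the kinase signal down again. In the cortex they are used as a readout of recent neuronal activity, and their transcripts are short-lived.

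Promoter sequences of 7 of the 10 genes were matched by symbol in a RefSeq table of the build GRCm38.p6, an older build than the GRCm39 to which the reads were aligned. No entry was matched for arc, egr1 and ier2. The core of the cyclic AMP response element, TGACG on either strand, was found in the window of 250 bases before to 50 bases after a start for all 7 genes, in at least 1 of their entries, beside 20.8% of all 32851 promoters. The windows below are the 250 bases before the start of 4 members with a single annotated start and at least 2 such cores there, shown because the motif recurs in them, and printed 5′ to 3′ on the gene's strand with the cores in capitals. In egr2, which has 5 annotated starts, 3 of these had 2 cores.
fos, chr12:85473640-85473889, forward strand: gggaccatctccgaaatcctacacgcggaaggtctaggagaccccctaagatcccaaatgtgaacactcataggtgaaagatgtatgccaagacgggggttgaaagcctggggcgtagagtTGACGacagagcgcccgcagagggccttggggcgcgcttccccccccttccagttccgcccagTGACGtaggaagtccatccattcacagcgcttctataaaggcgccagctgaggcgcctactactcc
npas4, chr19:4989972-4990221, reverse strand: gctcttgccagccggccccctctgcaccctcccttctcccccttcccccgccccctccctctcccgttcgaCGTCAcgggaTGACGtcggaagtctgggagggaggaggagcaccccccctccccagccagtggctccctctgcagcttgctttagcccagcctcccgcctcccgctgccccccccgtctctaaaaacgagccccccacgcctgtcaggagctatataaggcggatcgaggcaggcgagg
nr4a1, chr15:101266596-101266845, forward strand: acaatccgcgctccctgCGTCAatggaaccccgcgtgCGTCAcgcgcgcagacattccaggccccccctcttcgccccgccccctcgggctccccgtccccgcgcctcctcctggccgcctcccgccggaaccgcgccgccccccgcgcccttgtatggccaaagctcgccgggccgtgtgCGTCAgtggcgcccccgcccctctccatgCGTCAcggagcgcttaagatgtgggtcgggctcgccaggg
dusp1, chr17:26508473-26508722, reverse strand: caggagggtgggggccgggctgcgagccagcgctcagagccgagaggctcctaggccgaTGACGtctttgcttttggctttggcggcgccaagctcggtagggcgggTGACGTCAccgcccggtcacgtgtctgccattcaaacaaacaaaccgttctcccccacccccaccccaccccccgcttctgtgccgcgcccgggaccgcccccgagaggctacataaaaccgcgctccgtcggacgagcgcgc

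In fos the cores began 129 and 66 bases before the start, and in npas4 they lay close together at 179 and 169 bases. In nr4a1 there were 4, at 233, 213, 69 and 40 bases. In dusp1 there was 1 at 191 bases, and the sites at 143 and 140 bases overlap in the full palindrome TGACGTCA, which was found in 1.79% of all promoters. A serum response element, searched as the CArG box, was found in egr2 alone of the 7 genes and in 1.63% of all promoters, and GCGGGGGCG, a site of the EGR factors, in fosb and nr4a1 and in 2.91% of all promoters. Neither AAAGGTCA, the monomer site of the NR4A receptors, nor TGANTCA, the AP-1 site, was found in the 7 genes, beside 1.51% and 7.81% of all promoters. All motifs were searched on both strands, and a match is a run of letters and not a bound site.

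Measured per length of transcript, the 10 genes spanned a wide range of levels. Mean levels over the 27 libraries ran from 91.7 FPKM for egr1 and 64.8 FPKM for arc, above 94.7% and 91.9% of tested genes, to 3.36 FPKM for fosb and 1.64 FPKM for egr2, above 22.1% and 8.09%. The order from high to low was egr1, arc, junb, nr4a1, dusp1, fos, ier2, npas4, fosb and egr2. Neighbours in that order were set in every one of the 14 mice for nr4a1 over dusp1, dusp1 over fos, and fosb over egr2. The others crossed in some mice, with egr1 above arc in 11 of 14 mice, fos above ier2 in 12, ier2 above npas4 in 12 and npas4 above fosb in 11. The fewest fragments behind a library's value were 28, for egr2, and the most 14631, for arc. The reading strand of the counting is not given in the sources used here, and in the GRCm39 annotation junb overlaps prdx2 and dusp1 overlaps ergic1 on the opposite strand, so the values of junb and dusp1 are uncertain to that extent. In that build fos lies at chr12:85520658-85524047, npas4 at chr19:5034382-5040344, arc at chr15:74540932-74544419, nr4a1 at chr15:101151980-101172681 and dusp1 at chr17:26724564-26781102.

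The levels differed between mice more than those of most genes. The SD between mice within a treatment, on log2(FPKM + 1) of the mean of a mouse's hemispheres, had a median of 0.49 over the 10 genes and 0.14 over all tested genes. It was 0.70 for arc, above 99.5% of tested genes, and 0.65 for npas4, above 99.4%. It was lowest for fosb, at 0.24 and above 83.0%. Without mouse AD the median SD of the 10 genes was 0.38 beside 0.13 over all tested genes, and npas4 and arc still lay above 99.1% and 99.0%. Set beside the 500 tested genes nearest to it in level, fosb had a larger SD than 78.4% of them, egr2 than 95.6% and npas4 than 98.8%.

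**Figure D1:**
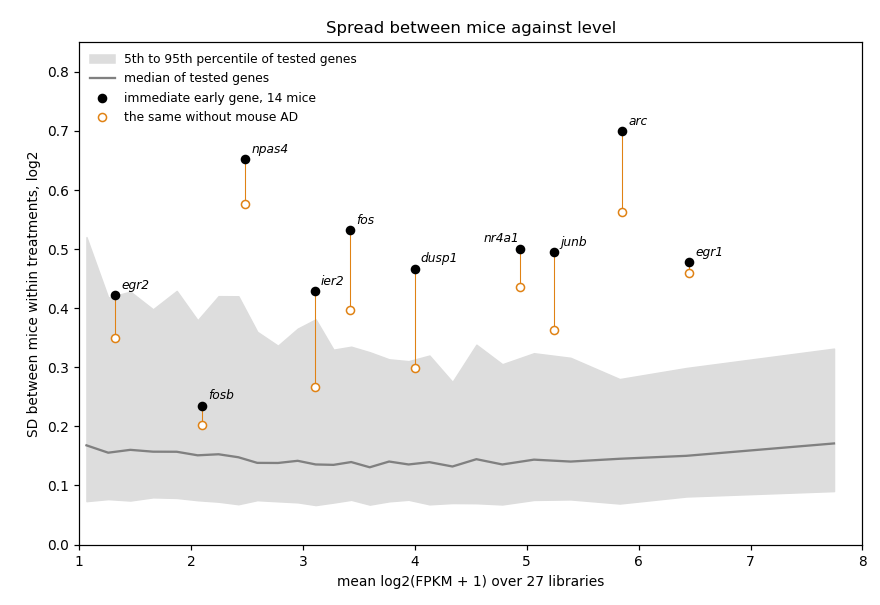
The SD between mice within treatments (y axis, log2 units) is plotted against the mean log2(FPKM + 1) over 27 libraries (x axis). Black points are the 10 genes with all 14 mice, orange rings the same without mouse AD, and the grey band holds the 5th to 95th percentile of tested genes in bins of level. The genes lie above the middle of the band, with arc at 0.70 and fosb at 0.24.

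The same mice were high or low in nearly all 10 genes. Mouse AD, given R33, ranked first in 7 genes and second in the other 3, and mouse Q, given R55, ranked first in those 3 and second in 5. Mouse N, given R33, was lowest in 5 genes, and mouse J, given vehicle, was lowest in 3 and second lowest in 4. The mean rank of a mouse over the 10 genes, 1 being the highest, was 1.3 for AD, 2.0 for Q, 12.8 for J and 13.2 for N. Over the 14 mice, Pearson correlations between pairs of the 10 genes had a median of 0.84 and ran from 0.40 for fosb with npas4 to 0.95 for junb with ier2. Without mouse AD they ran from 0.34 to 0.94 with a median of 0.83. These points share library and depth, and they describe 14 mice.

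**Figure D2:**
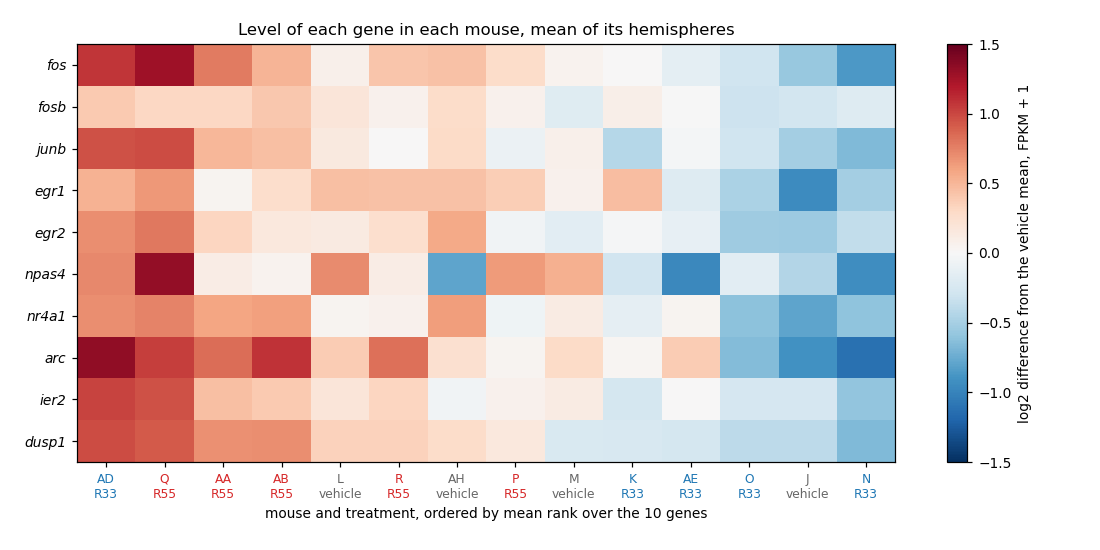
Colour shows the log2 difference of each gene (rows) in each mouse (columns) from the mean of the vehicle mice, on log2(FPKM + 1), red for higher and blue for lower. Mice are ordered by mean rank over the 10 genes, from AD (1.3) and Q (2.0) on the left to J (12.8) and N (13.2) on the right.

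The first group of the set is the AP-1 family, whose proteins pair through leucine zippers to bind DNA. The transcript of fos, the classic activity marker, stood in vehicle mice AH, J, L and M at 10.8, 6.49, 5.70 and 7.86 FPKM in the injected and at 11.97, 4.05, 12.9 and 9.08 FPKM in the contralateral hemisphere. In R33 mice AD, K, N and O it stood at 12.4, 6.62, 4.28 and 6.25 FPKM in the injected and at 26.4, 9.98, 3.80 and 6.65 FPKM in the contralateral hemisphere, with 7.27 FPKM in the injected hemisphere of AE. In R55 mice AA, AB, P, Q and R it stood at 15.1, 12.6, 10.5, 22.6 and 14.1 FPKM in the injected and at 14.3, 11.4, 9.63, 19.7 and 8.76 FPKM in the contralateral hemisphere. Averaged over hemispheres, 4 of the 5 R55 mice were above all vehicle mice, and the fifth, P, lay among them. The R33 mice other than AD lay below every R55 mouse. The means were 8.61 ± 2.54 FPKM with vehicle (SD, n = 4 mice), 9.09 ± 5.97 with R33 (n = 5) and 13.9 ± 4.39 with R55 (n = 5).

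The other AP-1 members were junb and fosb. The junb means were 35.4 ± 8.07 FPKM with vehicle, 35.5 ± 19.5 with R33 and 46.4 ± 14.5 with R55 (SD, n = 4, 5 and 5 mice), and 3 R55 mice exceeded all vehicle mice. The fosb means were 3.12 ± 0.771, 3.12 ± 0.835 and 3.77 ± 0.508 FPKM, again with 3 R55 mice above all vehicle mice. Mouse AD reached 84.7 FPKM of junb and 5.55 FPKM of fosb in its contralateral hemisphere, the highest values of both genes.

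The zinc finger factors egr1 and egr2 overlapped widely between treatments. The means of egr1, the most abundant of the 10, were 85.8 ± 31.5 FPKM with vehicle, 82.6 ± 30.04 with R33 and 103 ± 16.7 with R55 (SD, n = 4, 5 and 5 mice), and mice ranged from 41.9 FPKM (J) to 127 FPKM (Q). A single R55 mouse lay above all vehicle mice, and so did 2 R33 mice. The means of egr2, the least abundant, were 1.47 ± 0.817, 1.43 ± 1.01 and 1.94 ± 0.679 FPKM. Its libraries ran from 0.404 FPKM in the injected hemisphere of O to 4.81 FPKM in the contralateral hemisphere of AD.

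The factor npas4, which is largely restricted to neurons and driven by calcium, had the largest SD between mice of the transcription factors in the set. It stood in vehicle mice AH, J, L and M at 1.83, 2.99, 5.08 and 5.44 FPKM in the injected and at 2.29, 2.80, 11.2 and 8.06 FPKM in the contralateral hemisphere. In R33 mice AD, K, N and O it stood at 5.10, 3.07, 1.46 and 2.48 FPKM in the injected and at 11.5, 3.64, 2.12 and 5.48 FPKM in the contralateral hemisphere, with 1.72 FPKM in AE. In R55 mice AA, AB, P, Q and R it stood at 3.59, 5.23, 8.05, 13.5 and 5.60 FPKM in the injected and at 6.11, 3.82, 6.43, 11.1 and 3.98 FPKM in the contralateral hemisphere. Vehicle and R55 mice overlapped, and the 4 R33 mice other than AD lay below every R55 mouse. The orphan nuclear receptor nr4a1 averaged 29.8 ± 11.4 FPKM with vehicle, 27.7 ± 12.7 with R33 and 37.7 ± 9.15 with R55 (SD, n = 4, 5 and 5 mice). A single mouse of each drug exceeded all vehicle mice in nr4a1.

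The effector arc encodes a protein that is made at synapses and speeds the removal of AMPA receptors. It stood in vehicle mice AH, J, L and M at 55.2, 27.3, 57.5 and 49.6 FPKM in the injected and at 55.9, 22.2, 66.3 and 67.4 FPKM in the contralateral hemisphere. In R33 mice AD, K, N and O it stood at 81.8, 46.6, 22.0 and 25.8 FPKM in the injected and at 174, 49.6, 20.5 and 34.0 FPKM in the contralateral hemisphere, with 61.7 FPKM in AE. In R55 mice AA, AB, P, Q and R it stood at 89.8, 96.7, 45.8, 103 and 90.4 FPKM in the injected and at 80.2, 105, 51.3, 92.8 and 77.9 FPKM in the contralateral hemisphere. The R55 mice other than P stood above all vehicle mice in both hemispheres, and P lay within their range. The means were 50.2 ± 17.1 FPKM with vehicle (SD, n = 4 mice), 57.8 ± 42.3 with R33 (n = 5) and 83.2 ± 20.8 with R55 (n = 5), and the R33 mean without AD was 40.2 ± 18.2 FPKM (n = 4).

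The remaining members are ier2, a small nuclear protein, and dusp1, a phosphatase that shuts off MAP kinases. In vehicle mice AH, J, L and M, dusp1 stood at 15.5, 11.3, 14.9 and 10.9 FPKM in the injected and at 16.8, 8.53, 19.2 and 11.3 FPKM in the contralateral hemisphere. In R33 mice AD, K, N and O it stood at 21.7, 9.67, 8.09 and 8.62 FPKM in the injected and at 33.6, 12.5, 7.76 and 11.1 FPKM in the contralateral hemisphere, with 10.8 FPKM in AE. In R55 mice AA, AB, P, Q and R it stood at 21.2, 20.9, 14.2, 27.3 and 18.7 FPKM in the injected and at 22.4, 23.2, 15.4, 24.5 and 15.3 FPKM in the contralateral hemisphere. Averaged over hemispheres, 3 R55 mice exceeded all vehicle mice and the other two lay among them. For ier2 the lowest and highest mice were 5.57 and 7.81 FPKM with vehicle, 4.14 and 14.7 FPKM with R33 and 7.17 and 13.95 FPKM with R55. Here 4 R55 mice lay above all vehicle mice and 3 R33 mice lay below all of them, with means of 6.81 ± 1.003, 7.31 ± 4.25 and 9.72 ± 2.53 FPKM (SD, n = 4, 5 and 5 mice).

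**Figure D3:**
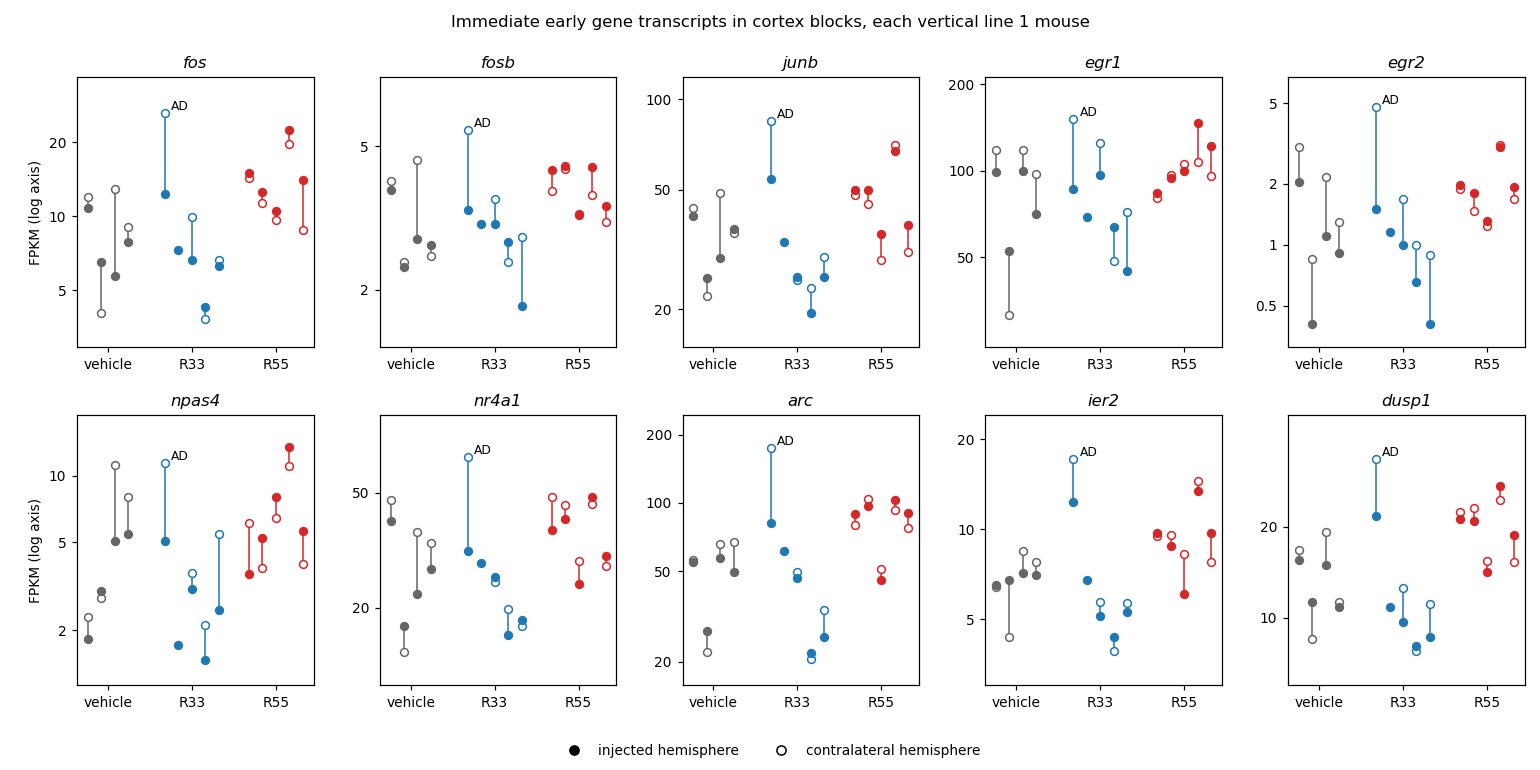
FPKM of each gene (y axis, log scale) in each library, by treatment (x axis). A vertical line joins the hemispheres of 1 mouse, the filled point being the injected and the open point the contralateral hemisphere. The contralateral library of AD is the highest value of arc (174 FPKM).

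None of the 10 genes passed the test between R55 and vehicle, although all 10 were higher with R55. The fit was limma on log2(FPKM + 1) over all tested genes, with treatment and hemisphere as factors and Benjamini-Hochberg adjustment, and its differences understate those of low genes. The differences were 0.76 ± 0.31 for arc (log2, SE, adjusted p = 0.557), 0.65 ± 0.26 for fos (adjusted p = 0.554), 0.56 ± 0.21 for dusp1 (adjusted p = 0.552) and 0.44 ± 0.20 for ier2 (adjusted p = 0.572). These 4 were the members with an unadjusted p under 0.05, 4 of 10 beside 4.71% of all tested genes that were higher by the same rule, and ier2 and dusp1 among them are the genes on which the set was picked. The other 6 ranged from 0.23 ± 0.12 for fosb (adjusted p = 0.596) to 0.45 ± 0.30 for npas4 (adjusted p = 0.634). The median of the 10 was 0.41 and that of all tested genes 0.026, and 60.2% of all tested genes were higher with R55.

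In linear terms the mean with R55 was 1.66 times the vehicle mean for arc, 1.61 times for fos, 1.498 times for dusp1 and 1.43 times for ier2, and 1.202 times for egr1. The egr1 difference rested on vehicle mouse J, as it was 0.35 on the log2 scale with all mice and 0.038 without J. No member had every R55 mouse above every vehicle mouse, a separation that 1.0% of all tested genes showed. Over all tested genes, 1 was called between R55 and vehicle, 0.00771% of those tested. It was ryr2, a calcium release channel, lower with R55 by 0.50 ± 0.08 on the log2 scale (adjusted p = 0.032) and named here after its value was seen. At an unadjusted p under 0.05, 611 genes were higher and 485 lower, and with each library's trend on transcript length removed the numbers were 388 and 468. All 10 members were higher with that trend removed too, with a median of 0.35.

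Both libraries of a mouse count as separate in that fit, so its p-values are too small where they resemble each other. With the mouse as a replicate block the differences were the same and their adjusted p was 0.8998 for each of the 10 genes. In that fit 4 members had an unadjusted p under 0.05, beside 261 of 12976 tested genes that were higher. With 1 value per mouse no member had an unadjusted p under 0.05, beside 1.6% of all tested genes that were higher, and the adjusted p was 0.918 for each. The count of members under that threshold also turned on single mice, as it was 0 without vehicle mouse J, 1 without R55 mouse Q and 6 without vehicle mouse L or AH or R33 mouse AD. The shares of all tested genes in these fits were 9.15% without J, 4.3% without Q, 4.15% without L, 5.82% without AH and 7.49% without AD. The median of the 10 was 0.25 without J and 0.29 without Q. In the injected hemisphere alone 5 members were under it, beside 0.524% of all tested genes, and the median was 0.52. In the contralateral hemisphere alone there were none, beside 6.74%, and the median was 0.29. The difference between hemispheres in the R55 effect was itself tested, first with no term for the mouse. No member passed, with a median of 0.22 over the 10 genes (adjusted p = 0.999 for each). With the mouse as a replicate block none passed either, and the median was the same. There egr2 alone had an unadjusted p under 0.05, at 0.49 ± 0.16 (adjusted p = 0.806), beside 318 of 12976 tested genes that were higher.

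None of the 10 genes passed the test between R33 and vehicle, a comparison that shares its vehicle mice with the one before. The limma differences ran from -0.23 ± 0.31 for npas4 (adjusted p = 0.894) to 0.00047 ± 0.13 for fosb (adjusted p = 0.9999), and 9 of 10 were negative, beside 42.5% of all tested genes. No gene of the table was called, which is 0.0% of those tested, and 414 genes were higher and 348 lower at an unadjusted p under 0.05. The median of the 10 was -0.045, beside 0.018 over all tested genes. The direction rested on single mice. Without AD all 10 were lower than vehicle with a median of -0.36, among them arc by -0.44 ± 0.26, dusp1 by -0.40 ± 0.15 and npas4 by -0.51 ± 0.29 (adjusted p = 0.9996 for each), and 3 members had an unadjusted p under 0.05, beside 1.7% of all tested genes that were lower. That count is no independent evidence, since the set was picked on R55 against these R33 mice without AD. Without vehicle mouse J all 10 were lower too, with a median of -0.25. Without N the median was 0.070, without AH 0.056, without O 0.048 and without L 0.0090. In the contralateral hemisphere alone 7 of 10 were higher than vehicle, with a median of 0.046.

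**Figure D4:**
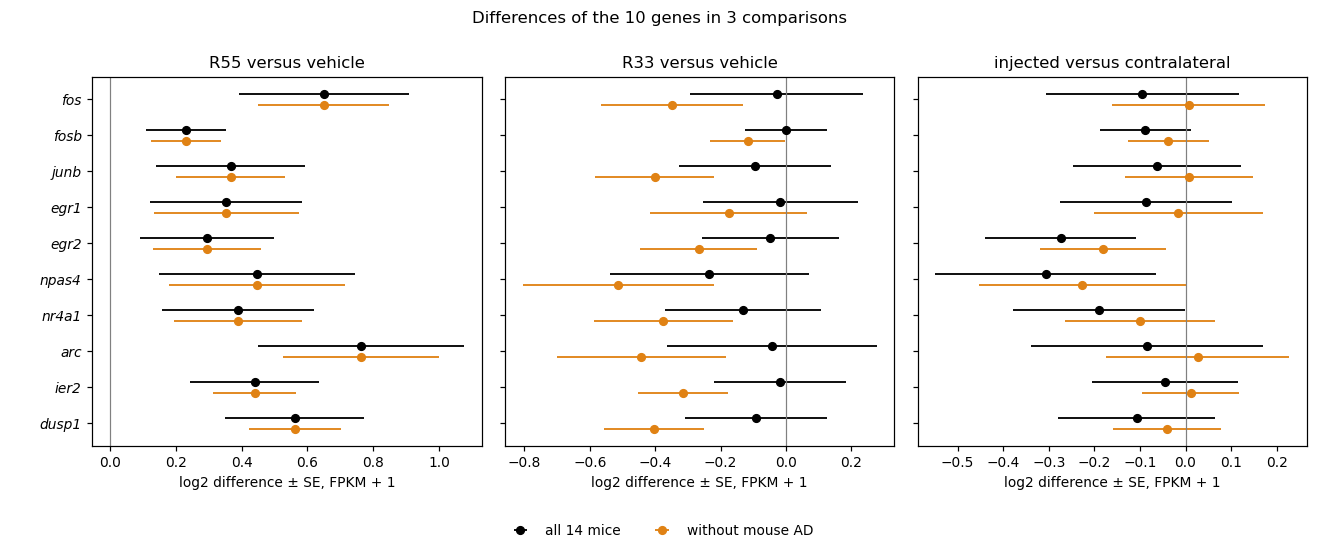
Points are log2 differences on FPKM + 1 (x axis, bars are SE) of the 10 genes (rows) in 3 comparisons (panels), in black with all 14 mice and in orange without mouse AD. All 10 black points lie above 0 for R55 versus vehicle, while those for R33 versus vehicle move down without AD, to a median of -0.36.

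Between the drugs, levels are described only, since the set was picked on this contrast. R55 was above R33 in all 10 genes, with log2 differences from 0.23 for fosb to 0.81 for arc and a median of 0.49. Without mouse AD the differences were 0.35 for fosb, 0.76 for ier2, 0.97 for dusp1, 0.999 for fos and 1.21 for arc, with a median of 0.77. Then every R55 mouse lay above every R33 mouse in dusp1, fos, ier2 and npas4, 4 of 10 genes, while 1.48% of all tested genes showed that separation. The R33 mean without AD was 80.2% of the vehicle mean for arc, 73.2% for dusp1, 54.6% for npas4 and 89.6% for fosb. The R55 mean was 2.07 times that R33 mean for arc, 2.05 times for dusp1, 2.49 times for npas4 and 1.35 times for fosb. R55 and R33 were given at the same concentration and time.

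The injected hemisphere was set against the contralateral hemisphere over all treatments. In R33 and R55 mice the injected side also received the drug, so injection and drug cannot be told apart there. Only the vehicle mice, described below, were injected without a drug. The first fit had no term for the mouse and held the unpaired library of AE. All 10 genes were lower on the injected side, beside 49.3% of all tested genes, and none passed the test, as did none of the tested genes (0.0%), with 189 higher and 261 lower at an unadjusted p under 0.05. The limma differences ran from -0.045 ± 0.16 for ier2 to -0.31 ± 0.24 for npas4, with a median of -0.091 (adjusted p = 0.9999 for each). With the mouse as a replicate block they were -0.28 ± 0.10 for egr2 (adjusted p = 0.679), -0.21 ± 0.09 for nr4a1 (adjusted p = 0.780) and -0.26 ± 0.13 for npas4 (adjusted p = 0.827). In that paired fit 2 members, egr2 and nr4a1, had an unadjusted p under 0.05, beside 3.02% of all tested genes that were lower.

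Mouse by mouse the sides differed both ways. Of the 13 mice with both hemispheres, 9 had less egr2 and dusp1 on the injected side, 8 had less arc, egr1, npas4, nr4a1 and ier2, 7 had less fosb and 6 had less fos and junb. The next counts are of mice higher on the injected side, of 4 vehicle, 4 R33 and 5 R55 mice in that order. They were 1, 1 and 5 for fos, 0, 0 and 4 for egr2, 1, 0 and 4 for npas4 and 1, 1 and 4 for fosb. For junb they were 2, 1 and 4, and for arc and egr1 1, 1 and 3. For nr4a1 they were 1, 2 and 2, for ier2 2, 1 and 2, and for dusp1 1, 1 and 2. In AD all 10 genes were lower on the injected side by a median of -0.92 on the log2 scale, and its contralateral library held 2.12 times as much arc, 2.32 times as much egr2, 2.05 times as much fos and 1.53 times as much dusp1 as its injected library. Other lists also differed between the libraries of AD. From the contralateral to the injected library, the summed astrocyte markers went from 571 to 815 FPKM, alas2 from 3.08 to 8.17 FPKM and the 9 glucocorticoid targets from 669 to 1120.5 FPKM, and the mean of the latter in AD, 895 FPKM, was the highest of all mice. Their part in the hemisphere difference of AD was not tested. In L, given vehicle, all 10 were also lower on the injected side, with a median of -0.58, while in R, given R55, all 10 were higher, with a median of 0.29. In J, given vehicle, 8 were higher with a median of 0.29. In 7 of the 10 genes AD had the largest difference of all mice and the injected side was the lower, as in 6.36% of all tested genes.

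The direction on the injected side depended on mouse AD. Without AD 4 of the 10 genes were higher and 6 lower on the injected side, with a median of -0.027, and without its contralateral library alone 6 were higher and 4 lower, with a median of 0.012. That leave-out of a single library was chosen after seeing the data. In the 4 vehicle mice alone 9 of 10 were lower, with a median of -0.14. No member passed the test of whether the R33 effect differed between hemispheres, with a median interaction of -0.15 (adjusted p = 0.9997 for each gene). That fit had no term for the mouse. With the mouse as a replicate block the median was -0.18 (adjusted p = 0.9999 for each gene). Over all genes it was the injected library of AD that correlated least with the others, with a median Pearson correlation of 0.958 beside 0.984 for its contralateral library.

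**Figure D5:**
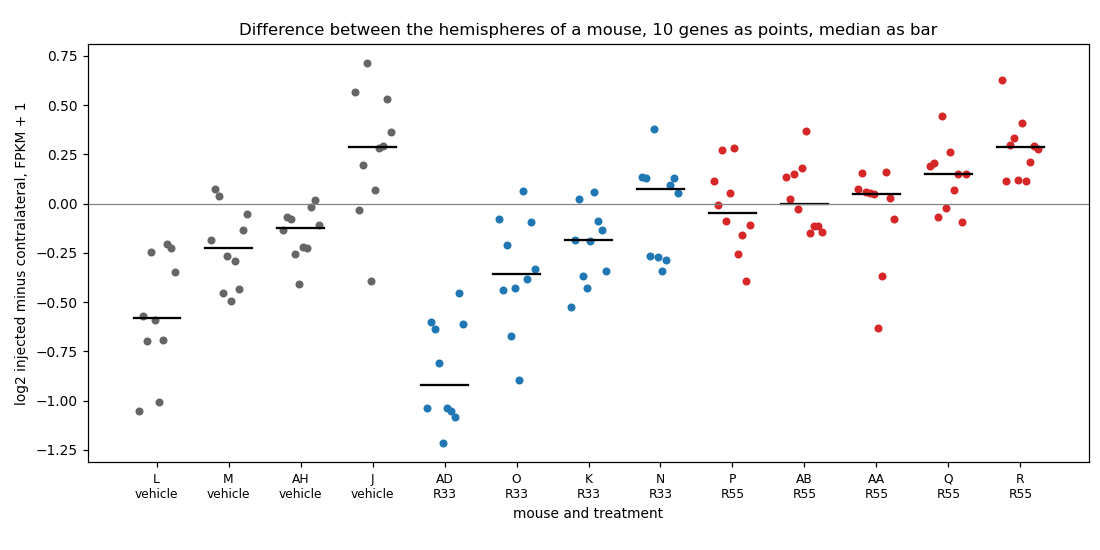
Each point is the log2 difference, injected minus contralateral on FPKM + 1 (y axis), of 1 of the 10 genes in a mouse (x axis, grouped by treatment), and the bar is the median of the 10. AD (-0.92) and L (-0.58) lie below 0 in all genes and R (0.29) above 0.

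Mouse labels have 1 or 2 letters, and what the number of letters marks is not given in the sources used here. The mice of either kind were compared apart. Among single-letter mice (3 per treatment) all 10 genes were higher with R55 than with vehicle, by 0.24 (fosb) to 0.80 (fos) on the log2 scale, and all 10 were lower with R33, by -0.03 (egr1) to -0.72 (npas4). Among double-letter mice there was 1 vehicle mouse, AH, beside 2 R33 and 2 R55 mice, and 7 genes were higher with R55, from -0.33 (egr2) to 0.88 (npas4). In those mice 6 genes were higher with R33, AD being 1 of the 2 R33 mice. With the number of letters as a covariate the R55 median was 0.36 and no member passed.

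Of 27 other immediate early genes, 24 were tested. With R55, 21 of them were higher than with vehicle and 3 lower, none passed, and the median was 0.11. At an unadjusted p under 0.05, 5 were higher and 1 lower, beside 4.71% of all tested genes that were higher. Over all tested genes, here and for the lists below, 60.2% were higher with R55, 42.5% lower with R33 and 49.3% lower on the injected side. The growth factor-like ccn1 was higher by 0.52 ± 0.19 (adjusted p = 0.552), while nr4a3, the sister receptor of nr4a1, was lower by -0.46 ± 0.21 (adjusted p = 0.582). These were 0.32 for ccn1 without mouse Q and -0.26 for nr4a3 without mouse M. With R33, 9 were higher and 15 lower with a median of -0.024, and on the injected side sik1, a kinase that restrains CREB coactivators, was lower by -0.17 ± 0.08 (adjusted p = 0.9999). Over the 14 mice their correlation with the mean of the 10 genes had a median of 0.60, and it was 0.93 for egr4 and 0.89 for gadd45b. It was -0.58 for nr4a2 and -0.27 for nr4a3, the other receptors of the NR4A family. The genes gadd45b and nr4a2 were named after their values were seen.

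The later genes of the response come next. Of 15 secondary response genes 8 were higher and 7 lower with R55, with a median of 0.0018, and 3 were higher and 12 lower with R33, with a median of -0.084. The G protein regulator rgs2 was higher with R55 by 0.15 ± 0.07 (adjusted p = 0.572), and nptx2, a secreted organiser of AMPA receptors, was lower with R33 by -0.27 ± 0.11 (adjusted p = 0.834), and by -0.16 without mouse M. Their median correlation with the 10 genes was 0.0059. Among 15 tested inhibitors of the MAP kinase pathway 12 were higher with R55 (median 0.080) and 7 with R33 (median -0.016). With R55 spry2 differed by 0.11 ± 0.05 (adjusted p = 0.586) and by 0.065 without mouse J, and with R33 spred3 by -0.25 ± 0.08 and dusp10 by 0.17 ± 0.07 (adjusted p = 0.834 for both). On the injected side spred3 was lower by -0.16 ± 0.06 (adjusted p = 0.9999).

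The kinases and factors upstream of the 10 genes form another list. Of 23 genes such as creb1 and srf, 6 were higher and 17 lower with R55 (median -0.038) and 3 were higher and 20 lower with R33 (median -0.052), with mrtfa, a coactivator of serum response factor, at -0.13 ± 0.06 with R55 (adjusted p = 0.572). Glucocorticoid targets were followed as a sign of stress around surgery. Of 8 tested, 6 were higher with R55 (median 0.12) and 5 with R33 (median 0.14), and tsc22d3 was higher by 0.47 ± 0.09 with R55 (adjusted p = 0.092) and by 0.42 ± 0.09 with R33 (adjusted p = 0.505), while sgk1 was higher by 0.26 ± 0.09 with R33 (adjusted p = 0.834). The R55 difference of tsc22d3 passed the test without mouse AH (0.56, adjusted p = 0.0165) and without mouse AD (0.47, adjusted p = 0.00815). Those 2 fits had no term for the mouse, and 4 and 50 of the 12976 tested genes passed in them. No gene passed with the replicate block, with the block and without AD, or with 1 value per mouse. The glucocorticoid genes had a median correlation of 0.30 with the 10 genes.

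Cell type markers with an unadjusted p under 0.05 were few and none passed. The astrocyte gene aldh1l1 was higher by 0.38 ± 0.14 with R55 (adjusted p = 0.552) and by 0.31 ± 0.15 with R33 (adjusted p = 0.834; 0.19 without mouse AD), alas2 was higher by 0.55 ± 0.23 with R55 (adjusted p = 0.557), and on the injected side gfap, gad2 and gad1 were higher by 0.54 ± 0.24, 0.27 ± 0.11 and 0.21 ± 0.08 (adjusted p = 0.9999 for each). On that side 5 of 8 neuronal markers were higher and 3 lower, with a median of 0.014, and 3 of 5 astrocyte markers were higher and 2 lower, with a median of 0.19. Neuronal markers had a median difference of 0.023 with R55 and 0.039 with R33. Astrocyte markers had a median of 0.13 with R55 and 0.13 with R33, with 4 of 5 higher and 1 lower for each drug. The medians were 0.11 and 0.028 for microglial, 0.19 and 0.30 for oligodendrocyte, -0.13 and -0.19 for endothelial and -0.26 and 0.17 for striatal markers. Striatal markers summed to 81.8 FPKM in mouse N, which came last by mean rank over the 10 genes (13.2, 1 being the highest). They summed to 11.8 to 46.6 FPKM in vehicle mice and to 12.7 to 28.9 FPKM in R55 mice. Their part in the low values of N was not tested.

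The genes most like the set were sought over the 14 mice by the Pearson correlation with the mean standardised level of the 10 genes. The closest 10 outside the set were asphd1, egr4, acta1, tmem198, twf2, sult2b1, sertad1, tomm40, poc1a and klhdc3, with correlations from 0.93 to 0.90, and from 0.92 to 0.88 without mouse AD. Of these only egr4, a factor of the EGR family, was among the lists of immediate early genes used here. For single members the closest gene was dusp1 for fos (0.95), ier2 for junb and junb for ier2 (0.95), nr4a1 for egr2 (0.92), trib1 for arc and nr4a1 (0.92), asphd1 for dusp1 (0.96), klhdc3 for fosb (0.94), kcnj11 for egr1 (0.92) and ypel4 for npas4 (0.91).

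Transcript length moved with this ranking. The 100 closest genes had a median length of 1942 bp, beside 3149 bp over all tested genes and 2768 bp over the 10 members. Libraries differed in how expression depended on length, and over the 14 mice the slope of that dependence had a correlation of -0.62 with the mean level of the 10 genes, and of -0.50 without AD, which had the steepest slope at -0.14 log2 units per doubling of length. With the length trend removed from each library, egr4 came first at 0.91, sertad1 second at 0.90, and 5 of the closest 10 stayed among the closest 10. The pairs of members kept a median correlation of 0.84.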

How the data were processed

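Stranded mRNA libraries were sequenced in pairs, and per the study's methods the authors aligned reads to GRCm39 with HISAT2 and used DESeq2 with treatment and hemisphere as factors. The counting tool, its strand setting and the annotation are not given in the sources used here. The deposited values are FPKM per gene and library, which the authors scaled to transcript length and counted fragments. All values above 0 (100%) were whole fragments within 0.01, which gave totals of 15932196 to 38077026 per library (median 27441308). Those totals limit low genes most.

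Samples were grouped by the labels' treatment and hemisphere, and the mouse was read from the title. The study's methods state 6 mice per group, and 4, 5 and 5 were labelled here. Another 5 libraries of the table were not used. Genes that averaged 1 FPKM or more over the libraries were tested on log2(FPKM + 1) with limma 3.58.1 (R 4.3.3, statmod 1.5.0), treatment and hemisphere as additive factors, an intensity trend and Benjamini-Hochberg adjustment at 0.05. The fit with no term for the mouse was tried on simulated libraries without differences between mice. The replicate block was tried on simulated libraries with such differences. The main fit was thus not tried on mice that differ. Same-label libraries come from 1 mouse, so they are paired, and the consensus correlation within mice was 0.347. Whether mice shared a litter or day is not given in the sources used here.

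The members and gene lists were chosen with earlier results of these data known. Named genes were the members, up to 2 genes per list and test with the largest difference among those at an unadjusted p under 0.05, any gene of a list that passed, the 10 genes most correlated with the members' mean over 14 mice, and the closest gene of each member. Alternatives changed the pseudocount, filter, scaling, length trend, mouse term, hemisphere, label letters, count model, moderation and mice included. Promoters came from RefSeq (GRCm38.p6), and coordinates of genes from GRCm39.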

Additional observations from a re-analysis of the deposited data

Results flagged for a closer look

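In groups of 4 or 5 samples, a value was singled out where its gap to the nearest other value was a large share of the group's range on log2(FPKM + 1). This happened in 7 of 90 groups of values, where chance gives about 1 in 20. The groups are not separate, as libraries and mouse means share values and the genes move together. The count is therefore no measure of an excess over that rate. Low arc in R55 mouse P had a gap of 0.83 of the range among injected libraries and of 0.752 among R55 mice. Low arc in vehicle mouse J had a gap of 0.831 among contralateral libraries and of 0.885 among vehicle mice, and low egr1 in J had a gap of 0.85 among contralateral libraries. High dusp1 in R33 mouse AD had a gap of 0.713 among injected libraries and of 0.739 among R33 mice.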

How the results depend on the processing

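All differences here are log2. Between R55 and vehicle, the 10 members were higher in 290 of 290 values from the alternatives and none passed (adjusted p from 0.0746 to 1). Alternatives that only left out an R33 mouse or library, or only changed the filter, mouse term or moderation, returned the same differences. The 290 values are therefore not separate. Double-letter mice taken apart, where 7 of 10 members were higher, are not among them. The members' median was 0.25 (without J) to 0.50 (without L) with 1 mouse left out. The 1 gene called became 0 without a filter, with median-of-ratios scaling, with the length trend removed (alone, with the replicate block or without AD), with the replicate block (alone or without AD), with 1 value per mouse, in either hemisphere alone and with label letters, and 0 to 50 with 1 mouse left out, 50 being without AD. The 4 members at an unadjusted p under 0.05 became 0 with 1 value per mouse and in the contralateral hemisphere, 2 with the length trend removed and the replicate block, and 0 (without J) to 6 (without L, AH or AD) with 1 mouse left out. In the fit with 2 members, 151 of 12976 tested genes were higher at that threshold. The shares of all tested genes in the other fits named are given above.

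Between R33 and vehicle, 1 gene was called without a filter. Members at an unadjusted p under 0.05 were 3 with the length trend removed and without AD, 1 without AD and with the replicate block, and 0 to 3 (without AD) with 1 mouse left out. In these 3 fits without AD, in that order, 293, 95 and 220 of 12976 tested genes were lower at that threshold. Of 290 values 52 were reversed. In the contralateral hemisphere alone arc was 0.034, fos 0.066, egr1 0.15, egr2 0.031, ier2 0.069 and dusp1 0.058. The value of fosb, near 0, became -0.00279 with a pseudocount of 0.1, -0.0129 with median-of-ratios scaling, -0.00668 with the length trend removed, -0.00438 with 1 value per mouse, -0.040 in the injected hemisphere, -0.025 with label letters, -0.0144 with voom on recovered fragments, -0.089 without AD's contralateral library, -0.00321 with the length trend removed and the replicate block, -0.13 with it removed and without AD, and -0.11 without AD and with the replicate block. With 1 mouse left out, values ran from -0.44 to 0.27 for arc, -0.35 to 0.21 for fos, -0.12 to 0.091 for fosb, -0.40 to 0.066 for junb, -0.33 to 0.13 for egr1, -0.27 to 0.14 for egr2, -0.39 to 0.077 for nr4a1, -0.32 to 0.15 for ier2 and -0.40 to 0.074 for dusp1.

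Between hemispheres, a replicate block by mouse put 2 members at an unadjusted p under 0.05, beside 392 of 12976 tested genes that were lower. For the R55 effect by hemisphere it put 1 there, egr2, beside 318 tested genes that were higher. Of 240 values 11 were reversed. Without AD's contralateral library arc was 0.098, fos 0.059, junb 0.068, egr1 0.0015, ier2 0.076 and dusp1 0.023, and in vehicle mice alone ier2 was 0.048. With 1 mouse left out arc ran from -0.12 to 0.027, fos from -0.15 to 0.0066, junb from -0.092 to 0.0072 and ier2 from -0.091 to 0.011. The causes were not tested. The alternative without AD's contralateral library and those that join settings were chosen after seeing the data. Between the drugs and vehicle and between hemispheres, no member was called with or without the replicate block, so the block had no call to remove. For R55 versus R33 without AD it left 1 of 2. The R55 difference of tsc22d3 passed without AH (0.56) and without AD (0.47), in fits with no term for the mouse. It did not pass without AD and with the replicate block.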
